A study of Mus musculus with 6 samples.

Results

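The genes described here encode the clathrin and AP-2 endocytic coat and were taken by name from the count table of hair follicle stem cells (HFSCs). The 10 genes were Cltc, Clta, Cltb, Ap2a1, Ap2a2, Ap2b1, Ap2m1, Ap2s1, Picalm and Eps15, of 56941 genes in the table, and all 10 passed the filter on low counts, as did 32149 genes in all. The HFSCs were sorted from dorsal skin of female mice at postnatal day 68 (PD68) by CD34 and α6-integrin, with 3 libraries of total RNA per genotype. All mice were of the strain B6;129S4-Dab2tm1Cpr/J, were homozygous for the floxed Dab2 allele and were given tamoxifen at 75 mg/kg on 5 days. Mice labelled WT had no Cre. Mice labelled Dab2-cKO had in addition the K14 Cre transgene, so that Dab2, the gene of an adaptor that links cargo receptors to clathrin, can be lost only in cells in which the K14 promoter was active. The libraries of this group are headed FL-FL in the table, as in the title of the series, although by the study's methods both genotypes carry the floxed allele.

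Clathrin-mediated endocytosis takes receptors and their ligands up from the plasma membrane in coated vesicles. Clathrin is a triskelion of heavy chains, each with a light chain bound to it, and the lattice that it forms is held to the membrane by AP-2, a complex of an α, a β, a μ and a σ subunit. Adaptors such as Dab2 bind cargo on one side and AP-2 and clathrin on the other. In skin, this route carries receptors of growth factor and Wnt signaling as well as integrins.

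Libraries held 7040032 to 11696457 counts, and a count of 0 would allow a share of up to 4.26e-05% (3 counts, counting error only). Counts were scaled between libraries by TMM, whose factors were 1.11 to 1.21 in the libraries labelled WT and 0.847 to 0.876 in those labelled Dab2-cKO. The share of mitochondrial genes was 12.99% to 14.5% in the former and 19.1% to 20.3% in the latter. That of rRNA genes, mitochondrial ones included, was 15.29% to 16.95% and 22.33% to 24.22%. The 100 most abundant genes took 32.41% to 33.15% and 44.01% to 46.16%. Dab2 itself rose in Dab2-cKO from 327 ± 15.4 to 1375 ± 68.2 (normalized counts, SD, n = 3 each), by 2.08 on the log2 scale (SE 0.08, adjusted p = 3.04e-34 by edgeR). The targeted gene thus went against the label, and counts per gene do not show whether the floxed exon was present. Markers of other cells differed as well, with a median log2 fold change of 1.59 for fibroblast, 1.84 for endothelial and -6.58 for hair genes. The part of such cells in the rise of Dab2 was not tested. The group of the FL-FL libraries rests on the title of the series, and an exchange of the headings would turn every direction below, which is given between the libraries as labelled.

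The markers of the sorted cells were present in both genotypes, with all 11 bulge genes and all 5 basal keratinocyte genes detected. The summed normalized count of the bulge genes was 10550 to 12057 in WT and 18281 to 18560 in Dab2-cKO. That of the basal genes was 16917 to 19021 and 27531 to 28426. The sums of fibroblast genes, given below, were larger in both genotypes. Of the bulge genes, 7 were higher and 3 lower in Dab2-cKO, and of the basal genes 4 were higher and 1 lower. Single markers were chosen after their values were seen. The sorting markers Cd34 and Itga6 had log2 fold changes of 1.80 and 0.55, and the bulge factor Nfatc1 of 1.32. The 3 lower bulge genes were Sox9 (-1.45), Lhx2 (-1.43) and Lgr5 (-1.32), and the proliferation gene Mki67 had a value of -2.12. Markers of other cells moved with the genotype as well. The summed normalized count of 11 hair shaft and inner root sheath genes was 224880 to 270370 in WT and 2290 to 2384 in Dab2-cKO, with all 11 lower. That of 6 fibroblast genes was 101490 to 122730 in WT and 353980 to 373640 in Dab2-cKO, with all 6 higher, and that of 5 skeletal muscle genes was 17393 to 20151 and 95345 to 97584, with all 5 higher. All 10 proliferation and all 5 melanocyte genes were lower, whereas all 5 endothelial, all 4 adipocyte and all 3 erythrocyte genes were higher, along with 5 of 6 immune genes. Of 4 genes of differentiated interfollicular epidermis, 3 were higher and 1 lower, and of 6 genes of neurons and Schwann cells, 3 were higher and 3 did not pass the test. No marker was at 0 in all libraries. Each coat gene is expressed by most cell types, and in these bulk libraries a change in the number of cells of a type cannot be told apart from a change of RNA per cell. The part of these markers in the results below was not tested.

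Of the 10 coat genes, 8 were higher in the libraries labelled Dab2-cKO and none was lower at an adjusted p under 0.05 by edgeR. At an unadjusted p under 0.05, edgeR gave 1 lower gene, Ap2a1, and DESeq2 called 8 higher and 0 lower after adjustment. Over all 32149 genes tested, 28.2% were called, 16.8% as higher and 11.5% as lower. Well-counted genes were called more often, and among the 7394 genes within the coat genes' range of mean normalized counts (189 to 3740), 40.2% were higher and 25.3% lower. The median log2 fold change of the coat genes was 0.46, against -0.02 over all genes and 0.10 over the genes of the same range. The median of the coat genes was 0.48 above that of all genes, a gap that scaling between libraries cannot change, and 0.39 above it among genes averaging 50 counts or more. Library size alone moved the median of all genes to -0.45 and called 2686 of the 32149 genes higher and 11168 lower. The coat genes were then 3 higher (Clta, Cltb and Ap2a2) and 4 lower (Ap2a1, Ap2m1, Picalm and Eps15). The rise of Clta, Cltb and Ap2a2 was therefore called under every scaling tried, whereas by library size alone Cltc, Ap2b1 and Ap2s1 did not pass and Ap2m1 and Picalm changed sign.

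**Figure D1:**
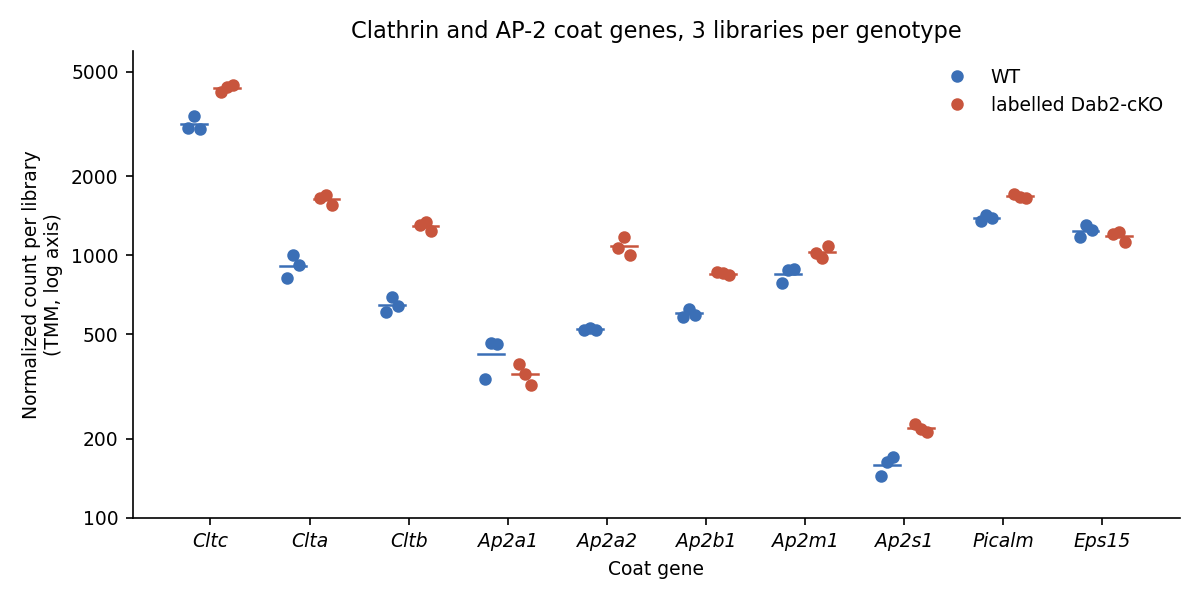
Normalized count of each coat gene (TMM, log axis) in the 3 libraries labelled WT (blue) and the 3 labelled Dab2-cKO (red), with a bar at each mean. In Clta, Cltb and Ap2a2 the libraries labelled Dab2-cKO lie far above those labelled WT, whereas in Ap2a1 and Eps15 the genotypes overlap.

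Cltc (ENSMUSG00000047126, chromosome 11 of GRCm39, 86584060 to 86648928) encodes the clathrin heavy chain, which forms the lattice. In the order of the replicates, it had 3055, 3389 and 3024 normalized counts in WT and 4182.5, 4357 and 4431 in Dab2-cKO. Every library labelled Dab2-cKO was above every library labelled WT. The mean rose from 3156 ± 202 to 4324 ± 128 (SD, n = 3 each), a log2 difference of 0.45 (SE 0.07, adjusted p = 9.22e-08 by edgeR). By library size alone the value was 0.03, which did not pass the test (edgeR's adjusted p = 0.689).

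The light chains regulate the assembly of clathrin and link it to the actin cytoskeleton through Hip1 and Hip1r. Clta (ENSMUSG00000028478, chromosome 4, 44004439 to 44034394) had 818, 1004 and 914 normalized counts in WT and 1644, 1702 and 1552 in Dab2-cKO. The mean rose from 912 ± 92.8 to 1633 ± 75.7 (SD, n = 3 each), by 0.84 on the log2 scale (SE 0.07, adjusted p = 7.91e-16 by edgeR). Cltb (ENSMUSG00000047547, chromosome 13, 54739416 to 54759395) had 609, 692 and 642 normalized counts in WT and 1307, 1343 and 1231 in Dab2-cKO. This was a rise from 648 ± 42.0 to 1294 ± 57.3 (SD, n = 3 each), with a log2 difference of 1.00 (SE 0.08, adjusted p = 7.96e-19 by edgeR). In both genes the lowest library labelled Dab2-cKO was well above the highest labelled WT. On leaving out single libraries, Clta gave log2 values of 0.77 to 0.92 and Cltb of 0.94 to 1.06. Both also passed the test against a 1.5-fold change.

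A ratio of counts within a library does not depend on the scaling between libraries. How often ratios to Cltc did not overlap over all genes was not counted. Relative to the heavy chain, both light chains were higher in Dab2-cKO, with a log2 ratio to Cltc that differed by 0.39 for Clta and by 0.54 for Cltb, and the genotypes did not overlap (exact 2-sided permutation test, p = 0.1 each, the smallest that 3 against 3 allow, and 0.129 after Benjamini-Hochberg adjustment over 9 ratios). Between the light chains, Clta took 59.6%, 61.4% and 61.0% of the counts per kb of exon in WT and 58.0%, 58.2% and 58.0% in Dab2-cKO. The share of Clta was thus 60.65% ± 0.952 and 58.1% ± 0.0965 (SD, n = 3 each), and this small difference did not overlap between genotypes (exact 2-sided permutation test, p = 0.1). The shares rest on 547 to 1724 counts per light chain gene and library, and an SD of 3 shares is imprecise. The part of counting error in the small difference was not tested. Clta remained the more abundant light chain per length in all 6 libraries.

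**Figure D2:**
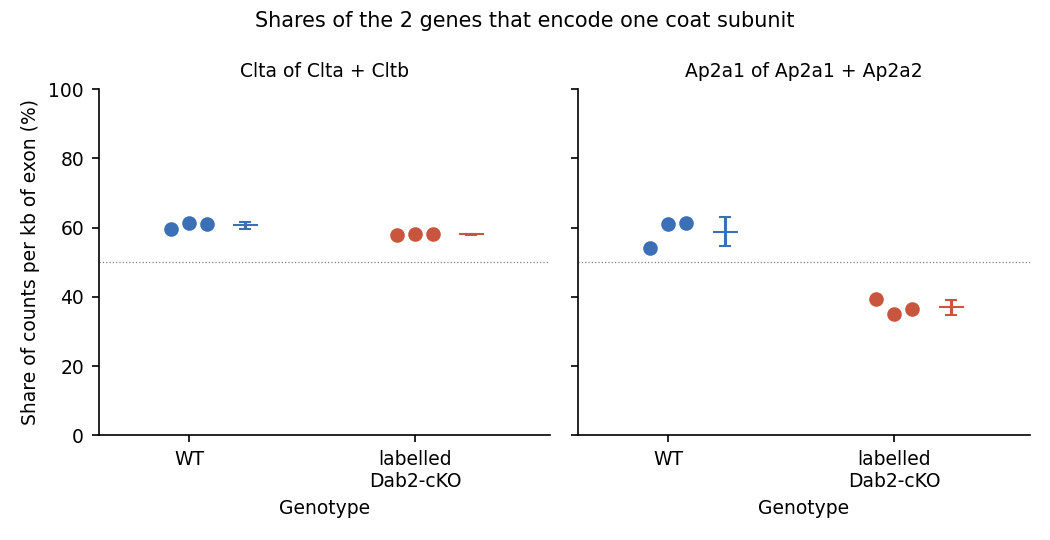
Share of Clta among both light chain genes and of Ap2a1 among both α adaptin genes, in percent of counts per kb of exon, with 1 point per library and the mean and SD of 3 libraries beside them. The share of Ap2a1 lies above 50% (dotted line) in the 3 libraries labelled WT and below it in the 3 labelled Dab2-cKO, whereas the share of Clta differs little.

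The α subunit of AP-2 binds phosphoinositides of the membrane and, through its appendage, accessory proteins, and it is encoded by a pair of genes. Ap2a1 (ENSMUSG00000060279, chromosome 7, 44549797 to 44578923), for αA adaptin, had 338, 463 and 461 normalized counts in WT and 385, 353 and 321 in Dab2-cKO. Replicate 1 labelled WT was within the range of the libraries labelled Dab2-cKO, and the other two were above them. The mean was 421 ± 71.2 and 353 ± 32.0 (SD, n = 3 each), with a log2 fold change of -0.26 (SE 0.10) that did not pass (edgeR's adjusted p = 0.0532). Without WT replicate 1 it was -0.38 and passed (edgeR's adjusted p = 0.00133), as it did without Dab2-cKO replicate 1 (-0.34) and Dab2-cKO replicate 2 (-0.28). Ap2a1 was called lower in 7 of the 14 alternatives and higher in none. Ap2a2 (ENSMUSG00000002957, chromosome 7, 141142031 to 141249132), for αC adaptin, had 518, 529 and 520.3 normalized counts in WT and 1063, 1176 and 1005 in Dab2-cKO. The libraries labelled WT lay close together and all 3 labelled Dab2-cKO were far above them. The rise from 522 ± 5.91 to 1082 ± 86.7 (SD, n = 3 each) was a log2 difference of 1.05 (SE 0.08, adjusted p = 3.82e-19 by edgeR), close to that of Cltb. By library size alone it was 0.62, and it passed the test in all 14 alternatives.

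Of the α adaptin counts per kb of exon, Ap2a1 thus took 54.0%, 61.1% and 61.4% in WT and 39.4%, 35.0% and 36.4% in Dab2-cKO. The share was 58.8% ± 4.19 in the former and 36.95% ± 2.23 in the latter (SD, n = 3 each). The genotypes did not overlap (exact 2-sided permutation test, p = 0.1), and the ratio of Ap2a1 to Ap2a2 differed 2.44-fold, or by -1.29 on the log2 scale. Ap2a1 had the larger level per kb of exon in all 3 libraries labelled WT and Ap2a2 in all 3 labelled Dab2-cKO. With the length of the canonical transcript in place of all exons the mean shares were 55.2% and 33.6%, and with raw counts they were 44.4% and 24.6%. Of the exon bases of Ap2a1, 48.85% overlap exons of the genes Fuz and Gm73202 on the opposite strand, against 4.96% for Ap2a2. Fuz, a planar cell polarity gene, had 49.4 ± 7.17 and 51.8 ± 8.83 normalized counts in WT and Dab2-cKO (SD, n = 3 each, log2 fold change 0.08, edgeR's adjusted p = 0.875). Since the strand setting of the counting is not given in the sources used here, reads at shared bases cannot be assigned, which bears on the level of Ap2a1 and its share.

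The windows before the starts of the α adaptin genes are shown because these genes, which encode one subunit, differed most in their change. Each is the stretch of 250 bases before the start of the canonical transcript, 5′ to 3′ on the strand of the gene, with every GGGCGG and CCAAT on either strand in capitals. Ap2a1 is at chr7:44578921-44579170 on the minus strand and Ap2a2 at chr7:141141781-141142030 on the plus strand of GRCm39.
Ap2a1: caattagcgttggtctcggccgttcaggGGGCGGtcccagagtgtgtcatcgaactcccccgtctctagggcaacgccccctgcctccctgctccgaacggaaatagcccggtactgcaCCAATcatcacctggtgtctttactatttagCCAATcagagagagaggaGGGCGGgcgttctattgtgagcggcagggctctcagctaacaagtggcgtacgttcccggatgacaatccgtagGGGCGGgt
Ap2a2: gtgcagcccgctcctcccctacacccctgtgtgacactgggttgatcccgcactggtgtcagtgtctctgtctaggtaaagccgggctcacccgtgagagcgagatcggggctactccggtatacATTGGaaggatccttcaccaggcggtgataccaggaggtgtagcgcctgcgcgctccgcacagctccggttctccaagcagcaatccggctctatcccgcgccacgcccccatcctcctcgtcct
The window of Ap2a1 held 3 matches to GGGCGG, the GC box, and 2 to CCAAT, whereas that of Ap2a2 held none to GGGCGG and 1 to CCAAT. Among 21654 protein-coding genes of the table, 36.4% of such windows held GGGCGG and 36.5% held CCAAT. The TATA box TATAAA had no match in either window (11.9% of all windows). CACGTG, an E-box, had none either (6.29%). The same held for CCGGAA, the core of ETS sites (12.4%). Both windows held 18 CpG dinucleotides, against a median of 8 over all windows, and the GC content was 58.8% for Ap2a1 and 62.8% for Ap2a2. An exon of Gm73202 overlaps the window of Ap2a1, as do 3 bases of another transcript of the gene. A match is a description of the letters and not a site.

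The remaining subunits of AP-2 have 1 gene each. Ap2b1 (ENSMUSG00000035152, chromosome 11, 83189501 to 83295878) encodes the β subunit, which binds clathrin. Its normalized counts were 582, 624 and 594 in WT and 861, 854 and 839 in Dab2-cKO. The genotypes did not overlap, and the rise from 599.99 ± 21.4 to 851 ± 11.4 (SD, n = 3 each) was a log2 difference of 0.50 (SE 0.08, adjusted p = 9.56e-08 by edgeR). Ap2m1 (ENSMUSG00000022841, chromosome 16, 20354186 to 20366675) encodes the μ subunit, which binds tyrosine-based sorting signals of cargo. It had 782, 877 and 887 normalized counts in WT and 1023, 979 and 1082 in Dab2-cKO. All 3 libraries labelled Dab2-cKO were above those labelled WT, but by less than in the other called subunits, with a rise of 0.28 on the log2 scale (SE 0.08, adjusted p = 0.00245 by edgeR). Under upper-quartile scaling the value of 0.13 did not pass, and by library size alone its sign turned to -0.15 (edgeR's adjusted p = 0.0429). Exons of the opposite strand, those of Gm15760, overlap 34.0% of the exon bases of Ap2m1. Ap2s1 (ENSMUSG00000008036, chromosome 7, 16472290 to 16484690) encodes the small σ subunit, which takes part in binding dileucine signals. Its normalized counts were 145, 163 and 170.03 in WT and 228, 217 and 212 in Dab2-cKO. They did not overlap, with a log2 difference of 0.46 (SE 0.13, adjusted p = 0.0029 by edgeR). The larger error than in the other genes goes with the low counts of Ap2s1, between 130 and 239 per library before normalization.

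The ratio of each AP-2 gene to the clathrin heavy chain was compared within libraries by an exact permutation test, which cannot go below p = 0.1 with 3 against 3. The log2 ratio to Cltc differed between genotypes by 0.05 for Ap2b1 (exact 2-sided permutation test, p = 0.5) and by 0.01 for Ap2s1 (exact 2-sided permutation test, p = 0.9), and the libraries overlapped in both. The SD of the log2 ratio of Ap2s1 was 0.14 in WT and 0.096 in Dab2-cKO (n = 3 each), so that a small difference would not have been seen. It was higher in Dab2-cKO by 0.59 for Ap2a2. It was lower by 0.697 for Ap2a1 and by 0.18 for Ap2m1. In these 3 genes the genotypes did not overlap (exact 2-sided permutation test, p = 0.1 each, 0.129 after adjustment over the 9 ratios). The share of all genes without overlap in this ratio was not counted. Cltc itself rose by 0.45, against a median of -0.02 over all genes. A gene at that median would thus also be lower relative to Cltc.

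**Figure D3:**
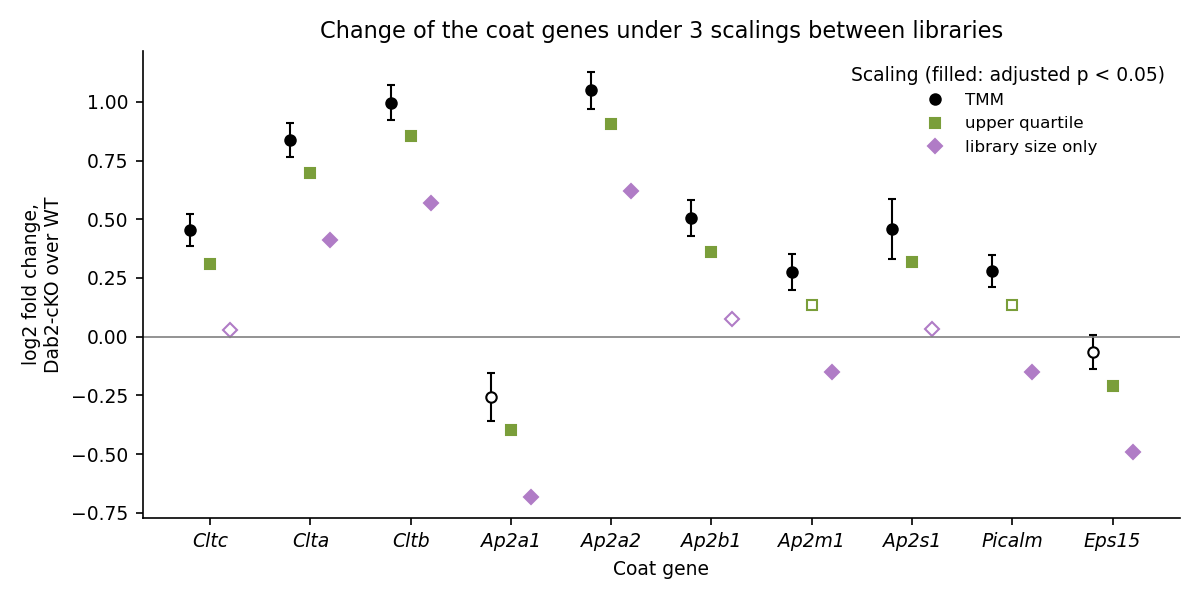
Log2 difference between Dab2-cKO and WT for each coat gene with TMM (circles, with the standard error), upper-quartile scaling (squares) and scaling by library size alone (diamonds), filled where the adjusted p was under 0.05. The order of the genes is similar in the 3 scalings, whereas the zero line moves, so that Cltc, Ap2b1, Ap2m1, Ap2s1 and Picalm lie near or below 0 by library size alone.

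Of the accessory genes, Picalm was called higher and Eps15 did not pass the test. Picalm (ENSMUSG00000039361, chromosome 7, 89779270 to 89862673) encodes CALM, a clathrin assembly protein that binds phosphoinositides and sorts SNAREs into vesicles. Its normalized counts were 1345, 1417 and 1383 in WT and 1709.8, 1665 and 1656 in Dab2-cKO. Without overlap of the genotypes, it rose by 0.28 on the log2 scale (SE 0.07, adjusted p = 0.000809 by edgeR). It was 0.14 and did not pass with upper-quartile scaling, and by library size alone it was -0.15 (edgeR's adjusted p = 0.0226). Eps15 (ENSMUSG00000028552, chromosome 4, 109137367 to 109245014) encodes a scaffold with EH domains that acts early at the coated pit. It had 1170.2, 1301 and 1247 normalized counts in WT and 1202, 1230.0 and 1121 in Dab2-cKO. The libraries overlapped, with means of 1239 ± 65.7 and 1185 ± 56.5 (SD, n = 3 each) and a log2 fold change of -0.07 (SE 0.07, adjusted p = 0.585 by edgeR). Eps15 was called lower in 3 of the 14 alternatives, with -0.49 by library size alone, -0.21 with upper-quartile scaling and -0.15 when only genes averaging 50 counts or more were kept. Relative to Cltc, both genes were lower in Dab2-cKO, Picalm by 0.18 and Eps15 by 0.52 on the log2 scale, without overlap (exact 2-sided permutation test, p = 0.1 each, 0.129 after adjustment over the 9 ratios). A gene at the median of all genes (-0.02) would be lower in this ratio as well, since Cltc rose by 0.45. As above, lack of overlap in this ratio was not counted over all genes.

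For a comparison of levels between genes, normalized counts were divided by the length of all annotated exons. In WT the order of this level, from the highest, was Cltc (261 ± 16.7 normalized counts per kb), Clta (166 ± 16.9), Eps15 (138 ± 7.30), Ap2m1 (131 ± 8.98), Cltb (107 ± 6.97), Picalm (86.9 ± 2.28), Ap2a1 (81.1 ± 13.7), Ap2a2 (56.1 ± 0.635), Ap2s1 (51.6 ± 4.21) and Ap2b1 (47.5 ± 1.70; SD, n = 3 each). Of the neighbours in this order, the libraries of Eps15 and Ap2m1, of Picalm and Ap2a1, and of Ap2s1 and Ap2b1 overlapped. In Dab2-cKO the order was Cltc (357 ± 10.6 normalized counts per kb), Clta (297 ± 13.8), Cltb (215 ± 9.51), Ap2m1 (159 ± 7.95), Eps15 (132 ± 6.28), Ap2a2 (116 ± 9.32), Picalm (105 ± 1.82), Ap2s1 (71.1 ± 2.64), Ap2a1 (68.1 ± 6.18) and Ap2b1 (67.4 ± 0.900; SD, n = 3 each). Here Eps15 and Ap2a2, Ap2s1 and Ap2a1, and Ap2a1 and Ap2b1 overlapped. Cltb thus moved from rank 5 to rank 3 and Ap2a1 from rank 7 to rank 9. The order depends on the lengths used, and with the canonical transcript Cltb moved only from rank 5 to rank 4, Ap2a1 again from rank 7 to rank 9, and Ap2m1 from rank 2 to rank 3. The level of all 10 genes was above that of chemosensory receptor genes, which were taken as a background and whose 95th percentile was 11.8 normalized counts per kb. An even background at the median of those genes would make up 1.90% to 10.4% of the counts of a coat gene in WT and 1.38% to 7.34% in Dab2-cKO.

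**Figure D4:**
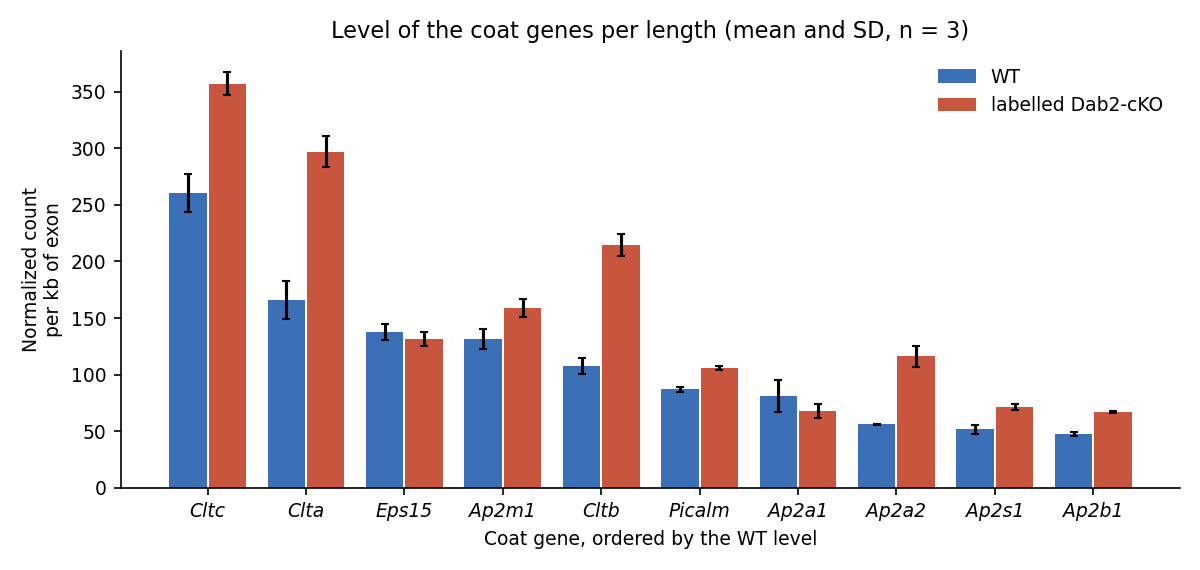
Level of each coat gene as normalized counts per kb of annotated exon (bars: mean of 3 libraries, error bars: SD), in the order of the WT level. Cltc and Clta are highest in both genotypes, and Ap2a1 and Ap2a2 change places.

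The partners of the coat were examined as lists of genes with known roles, of which the text names the largest changes and the most abundant gene. The background for each list is that 28.2% of all genes were called, 16.8% as higher and 11.5% as lower. In the coat genes' range of counts 65.5% were called, 40.2% as higher and 25.3% as lower. Among 10 genes of early recruitment, 2 were higher, 2 lower and 6 did not pass (median log2 fold change 0.05). Itsn1, a scaffold that binds Eps15 and dynamin, rose by 0.97 on the log2 scale (SE 0.07, adjusted p = 6.91e-19 by edgeR). Necap2, which binds AP-2, rose by 0.52 (edgeR's adjusted p = 2.25e-06), and by library size alone its 0.10 did not pass. Bmp2k, a kinase related to that of the μ subunit, fell by 0.46 (edgeR's adjusted p = 6.25e-06). Itsn2, the most abundant of the list by counts, had 1198 ± 109 and 1250 ± 48.0 normalized counts (SD, n = 3 each) and changed sign with the scaling.

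All 11 cargo adaptors were called, 7 as higher and 4 as lower (median 0.50), where 65.5% of genes in the coat genes' range of counts were called. The rule of the largest changes named none of the 4 lower genes. Beside Dab2, the largest changes were those of Reps2, an EH domain protein that binds the endocytic machinery, with 143 ± 16.1 and 402 ± 34.7 normalized counts (SD, n = 3 each, log2 fold change 1.49, edgeR's adjusted p = 3.10e-18), and of Dab1, the relative of Dab2 in reelin signaling, with 120 ± 15.0 and 229 ± 9.31 (SD, n = 3 each, log2 fold change 0.93, edgeR's adjusted p = 2.26e-08).

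Of 14 genes of membrane bending and actin linkage, 6 were higher and 2 lower (median 0.33). Bin1, which encodes a BAR domain protein abundant in skeletal muscle, went up from 187 ± 4.46 to 792 ± 41.9 (normalized counts, SD, n = 3 each, log2 fold change 2.08, edgeR's adjusted p = 1.82e-30). All 5 skeletal muscle markers rose as well, and the part of muscle or other cells in the rise of Bin1 was not tested. The clathrin and actin linkers moved apart. Hip1 rose from 461 ± 23.5 to 849 ± 22.03 (SD, n = 3 each, log2 fold change 0.88, edgeR's adjusted p = 2.23e-15), and Hip1r, the most abundant of the list by counts, fell from 1079 ± 93.1 to 616 ± 12.6 (SD, n = 3 each, log2 fold change -0.81, edgeR's adjusted p = 2.09e-14).

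In fission and uncoating, 5 of 10 genes were higher and 2 lower (median 0.34). The dynamin gene Dnm1, whose product is best known from neurons, rose by 1.21 on the log2 scale (edgeR's adjusted p = 2.66e-17). Synj1, a phosphatase of phosphoinositides, rose by 0.56 (edgeR's adjusted p = 4.05e-06), with 0.14 by library size alone, which did not pass. Dnajc6, for auxilin, which recruits Hsc70 to coats, fell by 1.00 (edgeR's adjusted p = 8.45e-09). Hspa8, the gene of Hsc70 and the most abundant of the list, fell from 6921 ± 379 to 5747 ± 187 normalized counts (SD, n = 3 each, log2 fold change -0.27, edgeR's adjusted p = 0.00103). Of the 4 phosphoinositide kinases, Pip5k1c rose by 0.58 (edgeR's adjusted p = 1.32e-07), but by library size alone its 0.15 did not pass. Pip5k1b fell by 0.92 (edgeR's adjusted p = 0.000252). Pik3c2a, the most abundant, was at -0.02 (edgeR's adjusted p = 0.88) and by library size alone at -0.45, which passed.

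**Figure D5:**
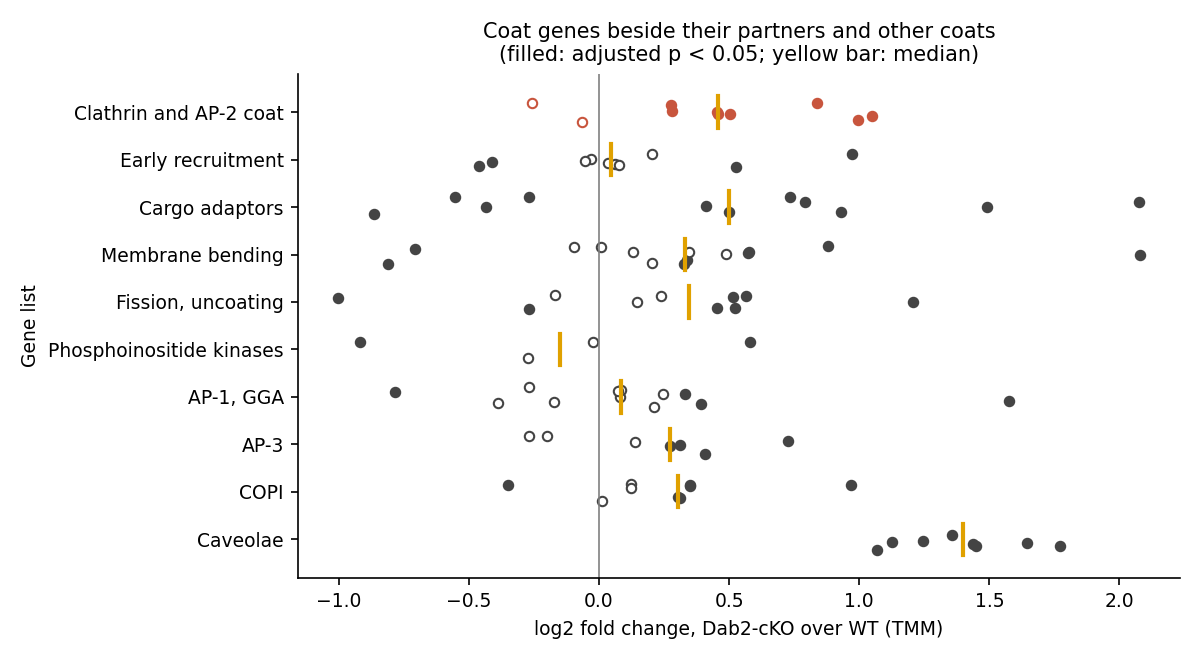
Log2 fold change (TMM) of every gene tested in the coat, in the lists of its partners and in lists of other coats, 1 point per gene, filled where the adjusted p was under 0.05, with the median of each list as a yellow bar. The coat genes have a median of 0.46, the caveolae list is highest with 1.40 and the phosphoinositide kinases are lowest with -0.15.

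Lists of other membrane coats gave a comparison for the AP-2 genes, with the same shares of all genes called as their background. Of 12 genes of AP-1, the clathrin adaptor of the trans-Golgi network and endosomes, and of the GGA adaptors, 3 were higher and 1 lower (median 0.08). Ap1s2, a σ subunit, went up from 131 ± 2.91 to 392 ± 33.5 (normalized counts, SD, n = 3 each, log2 fold change 1.58, edgeR's adjusted p = 2.55e-19), and Ap1m2, the μ subunit of epithelial cells, fell from 288 ± 16.7 to 169 ± 46.1 (SD, n = 3 each, log2 fold change -0.78, edgeR's adjusted p = 6.68e-07). Clint1, the most abundant, rose by 0.39 (edgeR's adjusted p = 2.52e-05) and was at -0.03 by library size alone. Of 7 AP-3 genes, 4 were higher and none lower (median 0.27). No AP-3 gene was lower at an unadjusted p under 0.05 either, and DESeq2 called 3 higher and 0 lower, whereas by library size alone 0 were higher and 4 lower. Of all 32149 genes tested, that scaling called 2686 higher and 11168 lower. Ap3s1 rose by 0.73 (edgeR's adjusted p = 1.79e-05), and by library size alone its 0.30 did not pass. Ap3b1 rose by 0.31 (edgeR's adjusted p = 0.000632) and Ap3d1, the most abundant, by 0.27 (edgeR's adjusted p = 0.00258), with -0.12 and -0.15 by library size alone. Ap3m2 rose by 0.41 (edgeR's adjusted p = 0.0305), a call lost without WT replicate 3, Dab2-cKO replicate 1 or Dab2-cKO replicate 2 (0.31, 0.33 and 0.38), with DESeq2, under upper-quartile scaling (0.27), by library size alone (-0.02), with the other filters on low counts (0.37 without a filter and 0.32 among genes averaging 50 counts or more) and in the test against a 1.5-fold change.

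Of 9 COPI genes, whose products coat vesicles of the Golgi apparatus without clathrin, 5 were higher and 1 lower (median 0.30). Copz2 rose by 0.97 (edgeR's adjusted p = 1.73e-10) and Copg2 fell by 0.35 (edgeR's adjusted p = 0.00187). Cope rose by 0.35 (edgeR's adjusted p = 0.00364) and Copa, the most abundant, also by 0.35 (edgeR's adjusted p = 3e-05), and by library size alone both had a negative sign (-0.08 each). By library size alone, the median of the coat genes was 0.03. The median of each list of partners or other coats named so far was negative except that of the cargo adaptors (0.08), from -0.08 for fission and uncoating to -0.58 for the phosphoinositide kinases. Of all 32149 genes tested, library size alone called 2686 higher and 11168 lower. The counts of the lists then turned to 1 higher and 7 lower for early recruitment and for AP-1 with the GGA adaptors alike. They turned to 2 higher and 5 lower for bending, and to 1 higher and 4 lower for fission and for COPI, with 5 and 4 for the cargo adaptors and 0 and 3 for the kinases. All 8 genes of caveolae, membrane pits that need no clathrin, were higher (median 1.40), under each scaling. Cavin2 rose by 1.77 (edgeR's adjusted p = 1.38e-28), Cav3, the caveolin of muscle, by 1.65 (edgeR's adjusted p = 3.08e-08), and Cav1 by 1.45 (edgeR's adjusted p = 4.44e-26). Cavin1, the most abundant, went from 1093 ± 87.2 to 2805 ± 46.3 normalized counts (SD, n = 3 each, log2 fold change 1.36, edgeR's adjusted p = 1.43e-26). These rises stood beside those of the fibroblast, endothelial, adipocyte and muscle markers given above, whose part in them was not tested.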

How the data were processed

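Total RNA of sorted HFSCs was sequenced in 3 libraries per genotype. Per the labels and the study's methods, the authors processed reads with fastp 0.23.4, aligned them to GRCm39 with HISAT2 2.2.1 and counted them per gene with featureCounts 2.0.6, and the deposited counts are not normalized. The annotation release and the settings for strand and multi-mapping are not given in the sources used here. A second deposited table holds the authors' own comparison by DESeq2 with its fold changes and p-values and was not used. Of the 56941 gene IDs, 56323 were found in the GENCODE annotation vM39 of GRCm39, from which coordinates, exon lengths and overlaps were taken. Rows without a gene name (6770) kept their ID.

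Counts were filtered by filterByExpr, scaled by TMM and compared by the quasi-likelihood test of edgeR 4.0.16 (R 4.3.3, robust, genotype as the only term), with Benjamini-Hochberg adjustment over all genes kept and a threshold of 0.05. To normalize, each count was divided by its library's effective size and multiplied by the mean of these sizes. Ratios within libraries were compared by exact permutation. Library totals of 7040032 to 11696457 counts set the precision. DESeq2 1.42.0, other scalings and filters, a 1.5-fold threshold, a replicate block and leaving out each library were alternatives. Code was tested on simulated data. The coat genes and lists were chosen with earlier results of these data known. Text names all 10 coat genes, Dab2 and, per list, the 3 largest called changes among genes averaging 50 normalized counts or more and the most abundant gene. Fuz was added for its overlap after values were seen. The labels call the replicates biological, and p-values measure the spread between them.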

Additional observations from a re-analysis of the deposited data

How the results depend on the processing

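Among 140 values of the 10 coat genes under 14 alternatives, 118 kept their direction and their side of the threshold, 10 lost and 10 gained a call, and 2 reversed. Library size alone gave 2686 genes higher and 11168 lower in all, 3 and 4 coat genes, and 19 and 38 partner genes (5387, 3682, 8, 0, 41 and 13 in the reported fit), so higher genes were 19.4% of calls in place of 59.4%. It reversed Ap2m1 (-0.15), Picalm (-0.15), Clint1 (-0.0343), Ap3m2 (-0.0191), Ap3b1 (-0.12), Ap3d1 (-0.15), Cope (-0.0765), Copa (-0.0799) and Itsn2 (-0.37). Upper-quartile scaling gave 5561 genes lower in all (43.5% of calls higher), with 2 coat genes lower and Itsn2 at -0.0821. The test against a 1.5-fold change left 2222 genes higher and 1136 lower, 3 coat genes (Clta, Cltb and Ap2a2), and 18 and 3 partner genes. Without a low-count filter 1 coat gene was lower and among genes averaging 50 counts or more there were 2, with Itsn2 at -0.0257. With each library left out, 0 to 1 coat genes were lower (1 without WT replicate 1, Dab2-cKO replicate 1 or Dab2-cKO replicate 2), and Itsn2 was at -0.0007 to 0.13. The cause of these shifts was not tested.

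With the replicate block, 8 coat genes were higher and 0 lower, and 5347 and 3620 genes in all. Deviations of same-numbered libraries correlated by 0.02, 0.01 and 0.01, under the 0.1 taken as pairing, although 6 of 6 libraries correlated best with their own number. The shares of Clta and Ap2a1 kept their direction under each alternative, with differences of -3.13 to -2.22 and of -24.3 to -20.6 percentage points with a library left out, and -21.9 for Ap2a1 under the block (exact sign-flip permutation test, p = 0.25, the smallest for 3 pairs). Alternatives for named partner genes and the canonical transcript length were added after seeing the data.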
